A study of Mus musculus with 16 samples.

Results

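The transcripts described here are those of 10 genes of the machinery that makes microRNAs and silences their targets: Ago1, Ago2, Ago3, Ago4, Dicer1, Drosha, Dgcr8, Xpo5, Tnrc6a and Tnrc6b. They were chosen by gene symbol from deposited tables of 55471 lines each, and all 10 were found and tested on both days. The samples were neural stem cells (NSC), dividing precursors of neurons and glia, taken from the cortices of C57BL/6 mouse embryos of embryonic day 15 to 16. All cells were transduced with a lentivirus, which carried either a scrambled sequence as control (shRNA CON) or a hairpin against the long non-coding RNA RUS (shRNA RUS), and were collected 5 or 7 days after seeding. Each shRNA and day had 4 RNA-seq libraries, 16 in all. Per the study's methods, cells came from pooled embryos of both sexes, the virus was added 1 day after seeding, and differentiation was started on day 5 by a change of medium without the growth factor bFGF. No source used here says whether the 4 libraries of a group were separate preparations of embryos, so the p-values measure the spread between these libraries, which may be technical. Both groups expressed an shRNA, which itself uses this machinery, and cells without a virus were not analysed here, so the values say nothing on the effect of an shRNA as such.

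MicroRNAs are cut from long primary transcripts in the nucleus by Drosha, an RNase III enzyme, together with its RNA-binding partner Dgcr8, the pair called the Microprocessor. Exportin-5, the product of Xpo5, carries the hairpin precursor to the cytoplasm, where Dicer1 cuts it to a short duplex. An shRNA enters the same route at the export step. Of the duplex, 1 strand is held by an Argonaute protein, and TNRC6 proteins, which bind Argonaute, recruit the enzymes that shorten the poly(A) tail of the target mRNA. Among the mouse Argonautes, Ago2 is the one known to cut targets that pair with the small RNA along its length. Loss of Dicer1 or Dgcr8 in the mouse cortex is known to impair neurogenesis.

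The genes lie on 6 chromosomes (GRCm38). Ago3 (chr4:126331704-126429556), Ago1 (chr4:126435012-126468583) and Ago4 (chr4:126489541-126533472) are neighbours on the minus strand of chromosome 4. Ago2 (chr15:73095844-73184935, minus strand), Drosha (chr15:12824815-12935291, plus strand) and Tnrc6b (chr15:80711313-80941085, plus strand) lie apart on chromosome 15. Dicer1 (chr12:104687742-104751952, minus strand), Dgcr8 (chr16:18253948-18289246, minus strand), Xpo5 (chr17:46202782-46243598, plus strand) and Tnrc6a (chr7:123123885-123195296, plus strand) are alone among the 10 on their chromosomes. The longest annotated transcripts ran from 4320 nt for Dgcr8 to 17332 nt for Tnrc6b. Exons of Dgcr8 overlap those of Trmt2a on the other strand over 825 nt and those of Gm49776 on the same strand over 327 nt, and exons of Ago2 overlap Chrac1 on the other strand over 219 nt. Tnrc6a shares 143 nt of exon with the lincRNA gene Gm45846. The sources used here do not say whether the libraries kept the strand, so reads in these stretches cannot be told apart and the values of Dgcr8, Ago2 and Tnrc6a carry that uncertainty.

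Of the 10 genes, 4 hold annotated microRNA genes themselves, among them both subunits of the Microprocessor. In Drosha this is Gm47288, which overlaps its exons on the same strand over 72 nt. In Dgcr8, mir-1306 is in the coding part of exon 2 and mir-3618 in the untranslated part of the same exon, and cutting of hairpins in the Dgcr8 mRNA by Drosha is a known feedback of this complex. Xpo5 holds mir-693 in an intron, and Tnrc6b holds mir-5113 in the untranslated part of exon 25. The mature sequences (RefSeq, GRCm38.p6) of the hairpins in Dgcr8, Xpo5 and Tnrc6b are shown 5′ to 3′, as they tie these genes to the RNAs that the pathway makes, with the seed, bases 2 to 8, in capitals.
mmu-miR-1306-5p in Dgcr8: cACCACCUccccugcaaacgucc
mmu-miR-1306-3p in Dgcr8: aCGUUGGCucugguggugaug
mmu-miR-3618-5p in Dgcr8: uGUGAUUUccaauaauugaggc
mmu-miR-3618-3p in Dgcr8: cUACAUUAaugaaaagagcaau
mmu-miR-693-5p in Xpo5: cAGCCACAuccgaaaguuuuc
mmu-miR-693-3p in Xpo5: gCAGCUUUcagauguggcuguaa
mmu-miR-5113 in Tnrc6b: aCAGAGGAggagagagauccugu
No pair among these 7 sequences shared a seed. The libraries were made from polyadenylated RNA, so mature microRNAs themselves were not measured.

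Promoters, the 250 bases before a RefSeq start, were held for 9 of the 10 genes, 11 promoters in all. They were rich in CpG, with a median of 28 (range 8 to 46) against a median of 6 over all 32851 mouse promoters. The TATA box TATAAA, searched on both strands as were all motifs, was in 0 of the 11 and in 12.4% of all promoters. CCAAT was in 6 of 11 (33.8% of all), the GC box GGGCGG in 8 (32.7%), the NRF1-type word GCANGCGC, where N is any base, in 5 (7.86%), the ETS-type word CCGGAAG in 2 (6.91%), the E-box CACGTG in 1 (6.02%) and the CRE word TGACGTCA in 0 (1.55%). The 2 promoters of Ago1 overlap and are counted as separate promoters. A match is a description of the sequence and not a binding site.

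The promoters of both Microprocessor subunits, of Xpo5, whose levels went apart from the other members, and of Tnrc6a and Tnrc6b, which went apart from each other, are shown over 100 bases, 5′ to 3′ on the strand of the gene (GRCm38.p6). The stretch is the last 100 bases that lie before both the RefSeq and the GENCODE start, so for Dgcr8 and Xpo5, whose GENCODE start is farther upstream, it ends before the RefSeq start. Capitals mark matches to any of these 7 motifs on either strand, and neighbouring matches can touch. The first 4 capitals of Xpo5 end a match that begins before the stretch.
Drosha, chr15:12824715-12824814, plus strand: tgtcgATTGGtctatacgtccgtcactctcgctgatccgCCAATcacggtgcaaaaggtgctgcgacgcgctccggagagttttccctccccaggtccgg
Dgcr8, chr16:18289247-18289346, minus strand: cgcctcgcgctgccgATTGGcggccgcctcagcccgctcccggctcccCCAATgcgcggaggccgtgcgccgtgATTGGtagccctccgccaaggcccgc
Xpo5, chr17:46202682-46202781, plus strand: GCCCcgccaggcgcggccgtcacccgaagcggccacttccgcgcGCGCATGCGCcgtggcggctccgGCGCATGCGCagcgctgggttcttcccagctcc
Tnrc6a, chr7:123123785-123123884, plus strand: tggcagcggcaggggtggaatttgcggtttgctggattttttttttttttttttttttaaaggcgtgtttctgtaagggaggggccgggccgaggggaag
Tnrc6b, first of 2 promoters, chr15:80711213-80711312, plus strand: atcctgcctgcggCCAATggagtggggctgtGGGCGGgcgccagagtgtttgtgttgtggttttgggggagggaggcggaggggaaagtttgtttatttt
Drosha and Dgcr8 both held CCAAT words and Xpo5 held the NRF1-type word in pairs, while the 250 bases of Tnrc6a held no match to any of the 7 motifs and only 9 CpG.

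The deposited values are TPM, transcripts per 1000000, which are corrected for transcript length and sum to 1000000 in each library, so levels can be compared between genes. TPM keeps no read number, so the depth of a library is unknown. The authors' mean of normalized counts over the 8 libraries of a day was between 472 (Ago4, day 5) and 9936 (Tnrc6a, day 7), so none of the 10 rested on few reads. Levels below are scaled TPM, for which each library's TPM were divided by its median ratio to the geometric mean of all 16 libraries, and errors are SD over 4 libraries. Tests used limma on log2(scaled TPM + 0.1), with factors set over the libraries of the comparison, over all genes that reached 0.1 TPM in the mean. Genes with a p under 0.05 after Benjamini-Hochberg adjustment over all of these were called. Over all genes tested, log2 fold changes of shRNA RUS over shRNA CON had a median of -0.061 on day 5 and -0.029 on day 7.

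The targeted transcript, listed as Gm20754, lay between 0.11 and 0.24 TPM with shRNA CON and between 0 and 0.32 TPM with shRNA RUS on day 5. On day 7 it lay between 0.26 and 0.72 and between 0 and 0.54 TPM, so that the groups overlapped on both days. Group means were 0.1725 and 0.1225 TPM on day 5, and 0.555 and 0.24 TPM on day 7. Levels this low, near the minimum of 0.1 TPM, cannot show how far the knockdown went. The paper reports a reduction of RUS by RT-qPCR in this experiment. NSC markers summed to 15600 to 17210 TPM with shRNA RUS against 11770 to 13140 with shRNA CON on day 5, with 3 of 5 called higher and 1 lower. On day 7 they summed to 7005 to 7727 against 6439 to 6934, with 2 higher and 1 lower. Vim and Fabp7 made up most of these sums (means of 8918 and 3510 TPM with shRNA CON on day 5). The gene called lower was Nes, with means of 27.5 against 56.04 TPM on day 5 and 48.6 against 110.6 TPM on day 7. Astrocyte markers summed to 3625 to 3911 against 3149 to 3431 TPM on day 5, with 1 of 4 called higher. On day 7 they summed to 1876 to 2128 against 1814 to 1858, with 2 higher and 1 lower. The gene called higher on day 5 was Gfap (means of 2434 against 1797 TPM). Means of Aqp4, Slc1a3 and Aldh1l1 in TPM were then lower with shRNA RUS, and none of them was called. Neither the NSC nor the astrocyte sums overlapped between the groups on either day. The fibroblast and vascular markers summed to 1.07 to 4.49 TPM in all libraries, with Cldn5 at 0 in all 4 libraries of shRNA CON on day 7. The 3 proliferation markers were all called lower with shRNA RUS on both days (day 5, sums of 211.3 to 237.7 against 400.1 to 423.3 TPM). Of the 4 microglia markers, 1 was called lower on day 5 and all 4 on day 7 (day 7, sums of 26.9 to 34.6 against 61.2 to 63.6 TPM). Of the oligodendrocyte lineage markers, 2 of 4 were lower on day 5 and 3 of 4 on day 7, when sums were 76.9 to 111.3 against 135.3 to 160.3 TPM. Neuron markers were lower for 2 of 4 on day 5 (sums of 230.0 to 261.9 against 292.9 to 402.3 TPM) and split on day 7, with 1 higher and 1 lower. The 10 genes are used in all these cell types, and in such bulk samples a change in the cells present and a change in RNA per cell cannot be told apart; the part of these markers in the results was not tested.

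**Figure D1:**
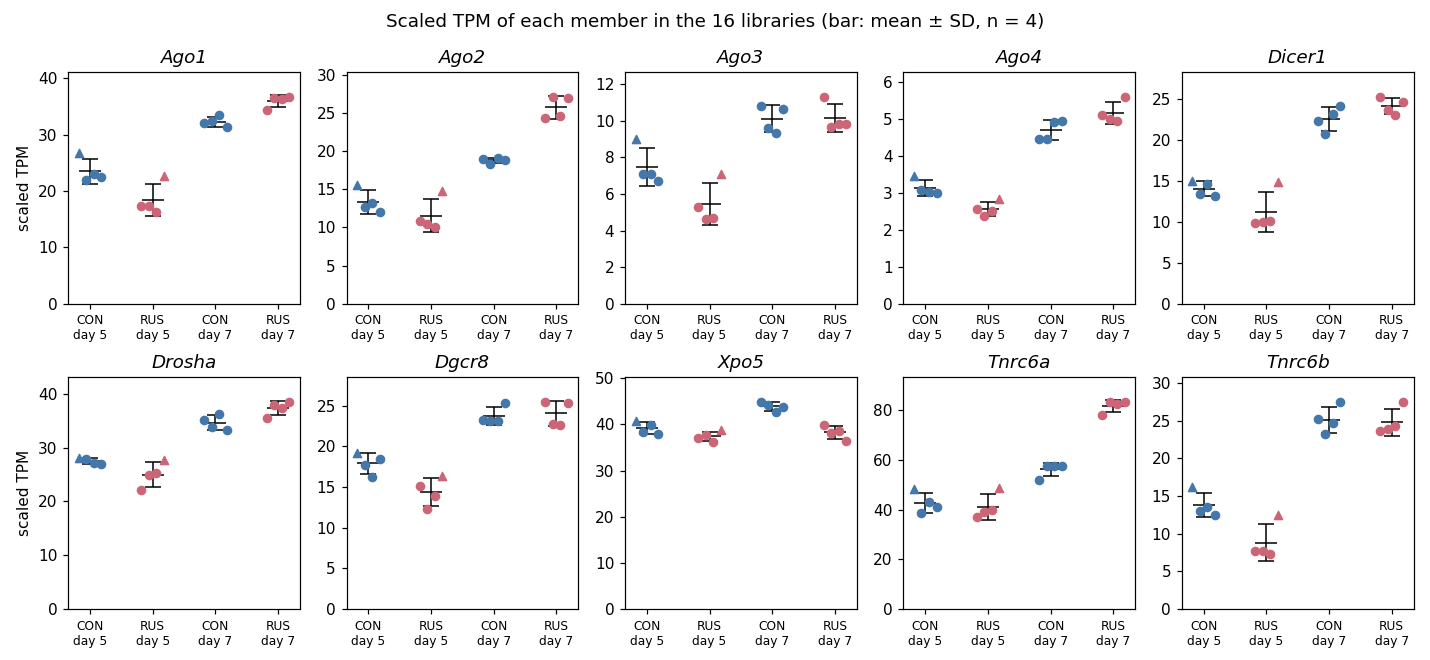
Scaled TPM (vertical axis, from 0) of the 10 genes in each library, by shRNA and day; bars are mean ± SD of 4 libraries and triangles mark replicate 1 of shRNA CON and replicate 4 of shRNA RUS on day 5. Both triangles are the highest points of their group in all 10 panels, and day 7 lies above day 5 for all genes with shRNA CON.

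Among these genes the order of levels was set by Tnrc6a at the top and Ago4 at the bottom. In shRNA CON on day 5, Tnrc6a had 42.7 ± 4.11 scaled TPM and Xpo5 39.2 ± 1.31, with overlapping libraries. Drosha followed with 27.5 ± 0.573, Ago1 with 23.5 ± 2.20 and Dgcr8 with 17.9 ± 1.27. Dicer1 (14.1 ± 0.919), Tnrc6b (13.8 ± 1.64) and Ago2 (13.3 ± 1.53) did not differ beyond their spread, and Ago3 (7.48 ± 1.05) and Ago4 (3.14 ± 0.211) came last. In shRNA RUS on day 7 the order was changed in the middle: Tnrc6a stood alone at 81.8 ± 2.45, Xpo5, Drosha and Ago1 lay between 36.0 and 38.3 in the mean, and Ago2, Tnrc6b, Dicer1 and Dgcr8 between 24.04 and 25.7. The 2 subunits of the Microprocessor were thus not at equal levels, with Drosha above Dgcr8 in each of the 16 libraries.

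On day 5, the day set for the withdrawal of bFGF, all 10 genes had lower estimates with shRNA RUS under each scaling, though only 7 with a length trend removed as described below, and 4 were called lower: Tnrc6b, Ago3, Ago1 and Dgcr8. None was called higher. Among all 22581 genes tested, 17.9% were called lower and 14.8% higher. The median log2 fold change of the 10 was -0.30, beside -0.061 over all genes. Xpo5 and Tnrc6a lay near the median of all genes, with 49.7% and 50.3% of genes tested below them.

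Tnrc6b, which links Argonaute to the deadenylases, had the lowest estimate. Its scaled TPM were 16.2, 13.1, 13.6 and 12.4 in replicates 1 to 4 of shRNA CON and 7.71, 7.68, 7.32 and 12.5 in those of shRNA RUS. In 3 of the 4 libraries with shRNA RUS the level was well under every control, and the fourth lay within the control range. Its fold change was -0.67 on the log2 scale (SE 0.167, limma adjusted p = 0.0136), and 11.4% of the genes tested had a lower one. The paralog Tnrc6a had 48.2, 38.5, 43.1 and 41.1 scaled TPM with shRNA CON and 37.1, 38.95, 39.8 and 48.5 with shRNA RUS, with overlap between the groups (log2 fold change -0.057, SE 0.0962, adjusted p = 0.687).

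Of the Argonautes, Ago1 had 26.8, 21.9, 23.0 and 22.4 scaled TPM with shRNA CON against 17.3, 17.4, 16.3 and 22.7 with shRNA RUS (log2 fold change -0.36, SE 0.109, adjusted p = 0.0322). Ago3 had 9.03, 7.08, 7.09 and 6.72 against 5.31, 4.62, 4.71 and 7.09 (log2 fold change -0.46, SE 0.148, adjusted p = 0.0394). In both genes 3 libraries with shRNA RUS were below every control and replicate 4 was among the controls. Ago4 had 3.45, 3.08, 3.02 and 3.01 against 2.57, 2.37, 2.52 and 2.84, the only one of the 10 whose groups did not overlap, yet it was not called (log2 fold change -0.27, adjusted p = 0.0605). Groups without overlap were found for 32.8% of all genes on day 5. Ago2, the slicing Argonaute, had 15.5, 12.7, 13.1 and 12.04 against 10.8, 10.5, 10.1 and 14.8 and was not called (log2 fold change -0.22, SE 0.13, adjusted p = 0.236).

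Of the processing enzymes, Dgcr8 fell from 19.2, 17.7, 16.3 and 18.5 scaled TPM with shRNA CON to 15.1, 12.3, 13.9 and 16.4 with shRNA RUS (log2 fold change -0.32, SE 0.0942, adjusted p = 0.0299). The highest library with shRNA RUS was just above the lowest control. Its partner Drosha had 26.9 to 28.1 against 22.1 to 27.6 scaled TPM and was not called (log2 fold change -0.14, adjusted p = 0.163). Dicer1 had 13.2 to 15.1 with shRNA CON, and with shRNA RUS 9.85, 10.04 and 10.1 in replicates 1 to 3 but 14.9 in replicate 4 (log2 fold change -0.34, adjusted p = 0.0747). Xpo5 differed little, with 37.8 to 40.7 against 36.2 to 38.7 (log2 fold change -0.064, SE 0.0487, adjusted p = 0.354).

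The number of day 5 calls moved with the libraries in the fit. Replicate 4 of shRNA RUS was the highest of its group and replicate 1 of shRNA CON the highest of its own for all 10 genes. Without replicate 4 of shRNA RUS, 8 genes were called lower, all but Xpo5 and Tnrc6a, with Dicer1 at -0.48 (adjusted p = 0.000886), Ago2 at -0.34 (0.0190), Ago4 at -0.32 (0.0353) and Drosha at -0.19 (0.0470) added. Without replicate 1 of shRNA CON, or without replicate 2 or 3 of shRNA RUS, 1 gene was left. Without replicate 2, 3 or 4 of shRNA CON or replicate 1 of shRNA RUS, 2 were left. Calls over all genes moved too, with 4593 of 22583 genes lower without replicate 4 of shRNA RUS and 3107 to 3485 lower in the other 7 fits, against 4034 of 22581 with all libraries. In the 7 fits with fewer calls the median log2 fold change of the 10 genes lay between -0.31 and -0.24, near that of all libraries. Tnrc6b kept its call in all 8 fits that left out a library, with log2 fold changes of -0.85 to -0.59.

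**Figure D2:**
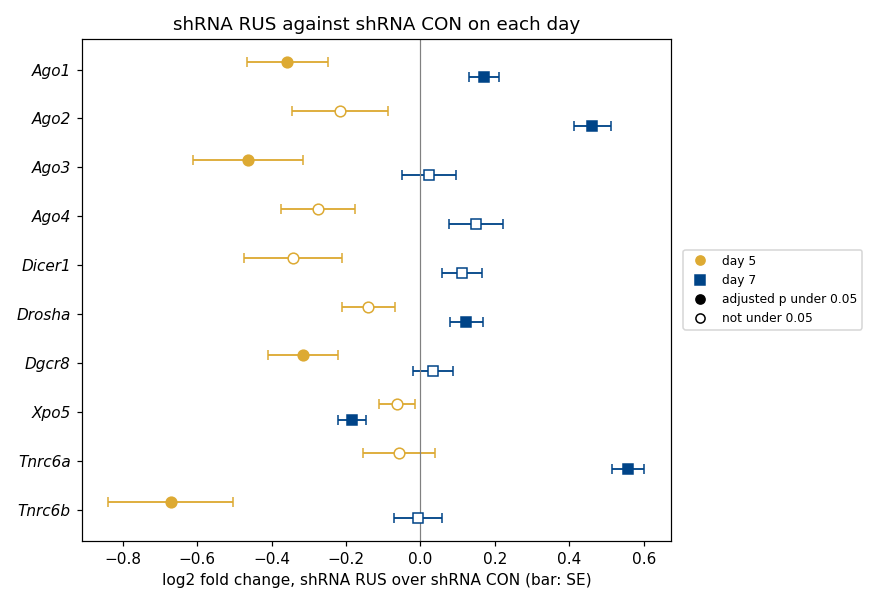
Log2 fold change of shRNA RUS over shRNA CON (horizontal axis, bars SE of limma) on day 5 (circles) and day 7 (squares); filled marks have an adjusted p under 0.05. On day 5 all estimates are below 0 (7 of 10 with the length trend removed), with Xpo5 and Tnrc6a near the median of all genes (-0.061). On day 7 Ago2 and Tnrc6a stand highest and Xpo5 lowest.

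On day 7, 2 days later, Tnrc6a, Ago2, Ago1 and Drosha were higher and Xpo5 was lower with shRNA RUS, and the other 5 genes were not called. Of all 24606 genes tested, 23.4% were called higher and 25.8% lower. The median log2 fold change of the 10 was 0.12.

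Tnrc6a rose from 52.1, 57.5, 57.4 and 57.6 scaled TPM in the libraries with shRNA CON to 78.2, 83.3, 82.6 and 83.3 in those with shRNA RUS. Every library with shRNA RUS lay well above every control. This was a log2 fold change of 0.56 (1.47-fold, SE 0.0435, adjusted p = 6.07e-06), above that of 85.2% of genes tested. Tnrc6b, in contrast, had 25.2, 23.3, 24.7 and 27.5 with shRNA CON and 23.6, 23.96, 24.3 and 27.5 with shRNA RUS, the same range (log2 fold change -0.0055, SE 0.0644, adjusted p = 0.957).

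Ago2 rose from 18.9, 18.3, 19.1 and 18.9 to 24.3, 27.1, 24.5 and 27.0 scaled TPM, again with no overlap (log2 fold change 0.46, 1.38-fold, SE 0.0499, adjusted p = 4.82e-05). Ago1 rose less, from 32.1, 32.4, 33.5 and 31.3 to 34.4, 36.6, 36.4 and 36.7 (log2 fold change 0.17, SE 0.0409, adjusted p = 0.00651), and its groups did not overlap either. Ago4 had 4.46 to 4.95 against 4.96 to 5.61, without overlap but not called (log2 fold change 0.15, SE 0.0729, adjusted p = 0.124). In 1 of the 18 alternatives run for day 7 Ago4 was called higher. Ago3 had 9.34 to 10.8 against 9.66 to 11.3, with overlap (log2 fold change 0.022, adjusted p = 0.8291; -0.037 with 75th percentile scaling). Groups did not overlap for 5 of the 10 genes and for 47% of all genes on this day.

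Xpo5, the exporter, was the 1 gene called lower, with 44.9, 44.1, 42.7 and 43.8 scaled TPM in shRNA CON and 39.9, 38.1, 38.5 and 36.5 in shRNA RUS (log2 fold change -0.18, SE 0.0382, adjusted p = 0.00289). All libraries with shRNA RUS were below all controls. Drosha had 33.4 to 36.3 against 35.6 to 38.5, which overlapped (log2 fold change 0.12, SE 0.0444, adjusted p = 0.0439). Its call was lost when any 1 of 6 libraries was left out (replicate 1, 2 or 4 of shRNA CON, or 2, 3 or 4 of shRNA RUS), while those of Tnrc6a, Ago2, Ago1 and Xpo5 were kept in all 8 such fits. Over all 18 alternatives run for day 7, these fits included, the call of Drosha was lost in 13. The call of Ago1 was lost with 75th percentile scaling (0.11, adjusted p = 0.0625) and with the length trend removed (0.073, adjusted p = 0.193). Dicer1 (20.7 to 24.2 against 23.1 to 25.3, log2 fold change 0.11, adjusted p = 0.119) and Dgcr8 (23.1 to 25.3 against 22.7 to 25.4, log2 fold change 0.034, adjusted p = 0.639, and -0.026 with 75th percentile scaling) were not called.

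The effect of the shRNA on each gene was then compared between the days in 1 fit over all 16 libraries. The difference, day 7 minus day 5, was called above 0 for 8 of the 10 genes, against 15.2% of 23789 genes tested, and below 0 for none, against 14.6%. On the log2 scale it was 0.67 for Ago2 (SE 0.146, adjusted p = 0.00309), 0.65 for Tnrc6b (SE 0.193, adjusted p = 0.0183), 0.60 for Tnrc6a (SE 0.110, adjusted p = 0.000880) and 0.52 for Ago1 (SE 0.121, adjusted p = 0.00474). Dicer1 (0.44), Ago4 (0.41), Dgcr8 (0.34) and Drosha (0.25) had adjusted p of 0.0367, 0.0119, 0.0354 and 0.0282. Ago3 (0.47, SE 0.175) had an adjusted p of 0.0524, and Xpo5 alone had a negative difference (-0.13, SE 0.0558, adjusted p = 0.0873), which was 0.040 with TPM as deposited.

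Leaving out each of the 16 libraries in turn kept the difference between the days for Ago1, Ago2, Ago4, Tnrc6a and Tnrc6b in all 16 fits, and for Dicer1 in 5, Dgcr8 in 7 and Drosha in 11. With the length trend removed, Tnrc6b (0.21, adjusted p = 0.154) and Ago4 (0.17, adjusted p = 0.2075) were not called. With a library left out, between 5 and 9 genes were called. Calls above 0 over all genes moved too, against 3626 of 23789 with all libraries. They were 3075 of 23826 without replicate 1 of shRNA CON on day 5. Without replicate 4 of shRNA RUS on day 5 they were 4392 of 23868. The fewest, 5, were called without replicate 1 of shRNA CON on day 5, replicate 2 of shRNA CON on day 7 or replicate 4 of shRNA RUS on day 7. Ago3 was called without replicate 4 of either shRNA on day 5.

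Between the days, transcripts of this machinery were higher on day 7. With shRNA CON all 10 genes rose (6 with the length trend removed), against 26.9% of 23789 genes tested called higher and 21.6% called lower. With shRNA RUS 9 rose, all but Xpo5, against 35% of genes called higher and 25.8% lower. The medians of the 10 were 0.45 and 0.98 on the log2 scale, and those of all genes 0.067 and 0.13. These comparisons use the same libraries as those above. The days differ in medium as well as in time, and the deposited tables are separate for each day, so time, medium and any difference between the sequencing of the days cannot be told apart.

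In shRNA CON the rise was largest for Tnrc6b, from 13.8 ± 1.64 to 25.2 ± 1.73 scaled TPM (log2 fold change 0.86, SE 0.136, adjusted p = 7.3e-05), and for Dicer1, from 14.1 ± 0.919 to 22.6 ± 1.47 (0.68, SE 0.107, adjusted p = 6.82e-05). Ago4 (0.57), Ago2 (0.50), Ago1 (0.46), Ago3 (0.44), Dgcr8 (0.40), Tnrc6a (0.40) and Drosha (0.33) followed, and Xpo5 rose least, from 39.2 ± 1.31 to 43.9 ± 0.892 (0.16, SE 0.0394, adjusted p = 0.00267). No gene of the 10 had overlapping days, as was so for 46.9% of all genes.

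In shRNA RUS, Tnrc6b rose from 8.81 ± 2.48 to 24.8 ± 1.80 scaled TPM (log2 fold change 1.52, 2.86-fold, SE 0.136, adjusted p = 1.05e-07). Ago2 rose from 11.5 ± 2.19 to 25.7 ± 1.54 (1.16, adjusted p = 9.29e-08), Dicer1 from 11.2 ± 2.46 to 24.2 ± 1.00 (1.123, adjusted p = 1.91e-07) and Tnrc6a from 41.1 ± 5.08 to 81.8 ± 2.45 (1.00, adjusted p = 2.29e-08). Ago4 (0.98), Ago1 (0.98), Ago3 (0.91), Dgcr8 (0.74) and Drosha (0.58) rose as well. Xpo5 had 37.4 ± 1.03 on day 5 and 38.3 ± 1.42 on day 7 (0.031, SE 0.0394, adjusted p = 0.517). It was the only one whose days overlapped, where 52.5% of all genes had no overlap. The counts of 10 and 9 held in every fit that left out 1 library. With the length trend removed (described below), the estimates with shRNA CON were -0.055 for Ago3, 0.043 for Ago2, 0.027 for Xpo5 and 0.10 for Tnrc6a, and these 4 were not called. With shRNA RUS, Ago3 was then at -0.0067 (adjusted p = 0.944) and Ago2 at 0.31, still called.

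**Figure D3:**
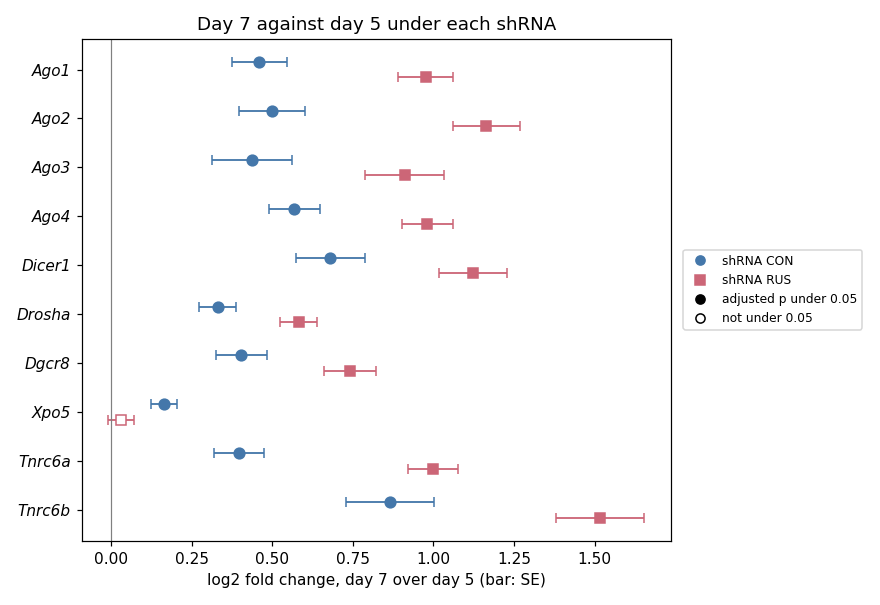
Log2 fold change of day 7 over day 5 (horizontal axis, bars SE of limma) for each gene with shRNA CON (circles) and shRNA RUS (squares); open marks have an adjusted p not under 0.05. With shRNA RUS 9 genes lie farther to the right than with shRNA CON, and Xpo5 lies near 0.

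These fold changes moved with the length of the transcript. On day 5 genes with a longest annotated transcript of up to 1 kb had a median log2 fold change of -0.00019, and that of the 902 genes over 8 kb was -0.22, of which 30.5% were called lower. Genes of 4 to 8 kb had a median of -0.097 and 25.9% called lower. All 10 members were longer than 4 kb, 5 of them (Ago2, Ago3, Dicer1, Tnrc6a and Tnrc6b) over 8 kb, and in each of these classes 2 of 5 were called lower. On day 7 the longer classes stood higher: genes up to 1 kb had a median of -0.088 and those of 1 to 2 kb of -0.13. Genes of 4 to 8 kb had a median of 0.087 and those over 8 kb of 0.14. Of the genes over 8 kb, 44.2% were called higher, beside 2 of 5 members. For 4 to 8 kb, 38.6% were called higher and 25% lower, beside 2 and 1 of 5 members.

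The same held between the days. Of all genes over 8 kb, 58.7% were called higher on day 7 with shRNA CON and 76.7% with shRNA RUS, where the medians were 0.36 and 0.70, beside 5 of 5 members in each. For the difference between the days in the effect of shRNA RUS, 41.6% of genes over 8 kb and 31.9% of those of 4 to 8 kb were called above 0, beside 4 of 5 members in each class.

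The libraries that stood apart for the 10 genes did so for long genes at large. In replicates 1 to 3 of shRNA RUS on day 5, genes over 8 kb lay at a median of -0.27, -0.32 and -0.33 from the mean of the controls (log2), and the 10 members at -0.31, -0.40 and -0.38. In replicate 4 the medians were 0.0018 and -0.034. In replicate 1 of shRNA CON they were 0.12 and 0.15.

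With a trend on transcript length removed from each library, an alternative added after the values were seen, Tnrc6b alone was still called lower on day 5 (-0.37, adjusted p = 0.00722). Tnrc6a (0.45, adjusted p = 1.8e-05) and Ago2 (0.33, adjusted p = 0.000715) were higher and Xpo5 lower (-0.25, adjusted p = 0.000556) on day 7, while Ago1 and Drosha were not called. Day 7 against day 5 then gave 6 of 10 genes higher with shRNA CON, beside 5274 higher and 6272 lower of all 23789 genes, and with shRNA RUS 8 higher and 1, Xpo5, lower (-0.28, adjusted p = 5.42e-06). In that fit the effects of the 2 days still differed, with a call above 0, for Tnrc6a (0.30), Ago2 (0.26) and Ago1 (0.24), and with a call below 0 for Xpo5 (-0.31, adjusted p = 0.000407). The other 6 genes kept estimates above 0 and were not called, from 0.048 for Ago3 to 0.21 for Dgcr8.

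**Figure D4:**
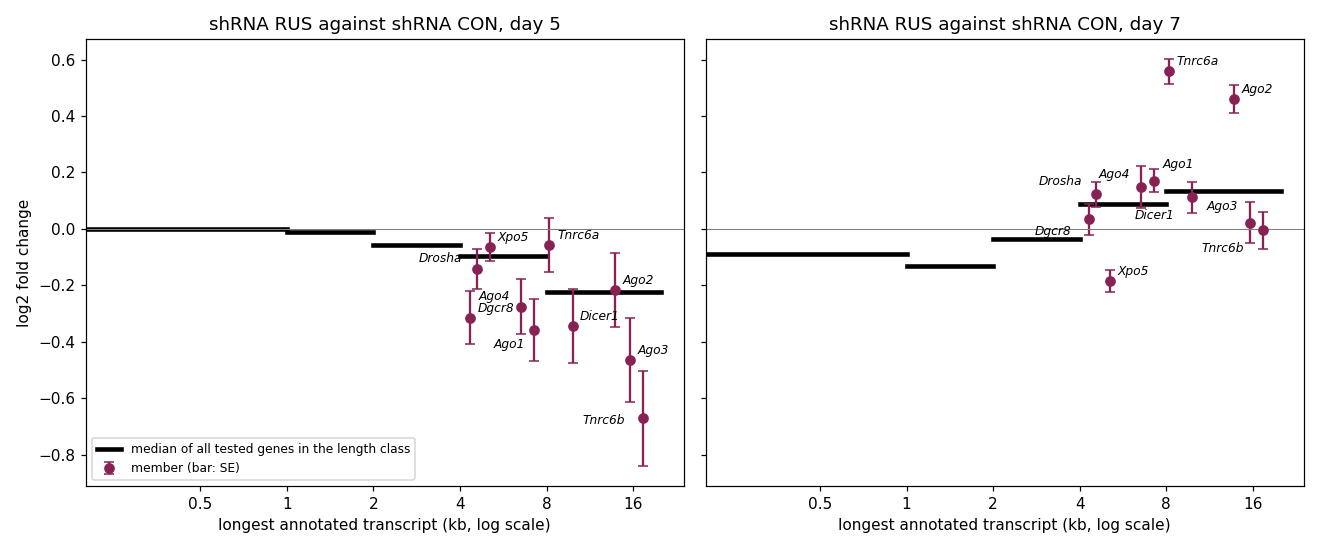
Log2 fold change of shRNA RUS over shRNA CON (vertical axis) against the length of the longest annotated transcript (horizontal axis, log scale) on day 5 and day 7; black lines are medians of all tested genes in a length class and points are the 10 genes with SE. The medians go down with length on day 5 and up from 2 kb on day 7, and Tnrc6a and Ago2 stand above and Xpo5 below the lines on day 7.

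The scaling mattered on day 5. With TPM as deposited all genes had a median log2 fold change of -0.21, and 8 of the 10 genes were called lower, with a median of -0.45. Over all genes, 3349 were called higher and 4034 lower with the library factors, 1768 and 6037 with TPM as deposited, 2418 and 4859 with scaling to the 75th percentile, and 4517 and 3445 with the length trend removed. For day 7 against day 5 the calls higher and lower were 6394 and 5133 against 8573 and 3434 with TPM as deposited in shRNA CON, and 5274 and 6272 with the length trend removed. In shRNA RUS they were 8317 and 6135 against 11801 and 3545, and 6598 and 7440 with the length trend removed. For the difference between the days they were 3626 and 3464 against 5700 and 2053 with TPM as deposited, and 2550 and 3824 with the length trend removed. TPM as deposited moved the median of all genes to 0.20 for day 7 against day 5 in shRNA CON, to 0.41 in shRNA RUS and to 0.19 for the difference between the days, and quantile scaling moved it to 0.00097 in shRNA RUS.

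The share of each paralog within its family does not depend on the scaling of a library. The 4 Argonautes together had 46.3 ± 6.46 TPM with shRNA CON and 33.3 ± 7.11 TPM with shRNA RUS on day 5, and 71.2 ± 1.22 and 84.3 ± 2.60 TPM on day 7 (TPM as deposited). Ago1 made up the largest part in all groups, from 46.7 ± 0.963% in shRNA RUS on day 7 to 49.6 ± 0.857% in shRNA CON on day 5. Its share was 48.9 to 50.7% with shRNA CON and 47.8 to 49.9% with shRNA RUS on day 5. On day 7 it was 47.6 to 50.1% and 45.8 to 48.1%, with overlap on both days. Ago2 had 27.2 to 28.4% of Argonaute TPM with shRNA CON and 30.0 to 31.2% with shRNA RUS on day 5, and 28.3 to 28.7% and 32.3 to 34.6% on day 7. Its share was thus higher in every library with shRNA RUS than in every control of the day, also where its level was not. Ago3 had 15.2 to 16.5% with shRNA CON and 13.2 to 14.97% with shRNA RUS on day 5, so that its share was lower in every library with shRNA RUS, and 13.96 to 16.3% and 12.3 to 15.1% on day 7, which overlapped. Ago4 stayed between 5.98 and 7.54% in all 16 libraries, with overlap on both days. The longest transcripts of Ago3 (15595 nt) and Ago2 (13800 nt) exceed those of Ago1 (7227 nt) and Ago4 (6537 nt), and the part of length in these shares was not tested.

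Among the TNRC6 transcripts, for which the third paralog Tnrc6c was added, the balance between Tnrc6a and Tnrc6b differed between the groups. Tnrc6b made up 19.1 to 21.0% with shRNA CON and 12.7 to 16.9% with shRNA RUS on day 5, and 23.9 to 26.9% and 18.5 to 20.2% on day 7. Tnrc6a made up 61.3 to 63.2% and 65.3 to 69.2% on day 5, and 55.1 to 59.0% and 61.3 to 64.3% on day 7. So in every library with shRNA RUS, replicate 4 of day 5 included, the share of Tnrc6b was lower and that of Tnrc6a higher than in each control of its day. Tnrc6c lay between 16.5 and 21.8% in all libraries. Shares within a family make up a whole, so the lower share of Tnrc6b and the higher one of Tnrc6a are not independent. Levels did not overlap for 32.8% of all genes on day 5 and 47% on day 7, and no such rate was set for shares. These shares were described and not tested, and Tnrc6b is the longest and Tnrc6a the shortest of the 5 members over 8 kb.

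**Figure D5:**
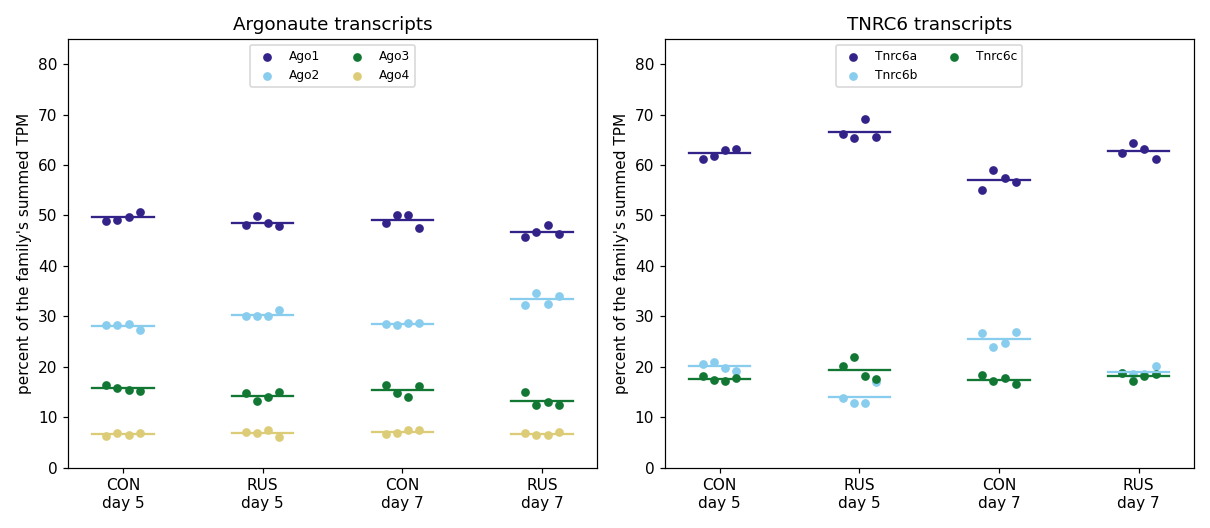
Share of each paralog in the summed TPM of the Argonautes (left) and of the TNRC6 transcripts (right), in percent, per library (points) with the mean of 4 libraries (lines). Ago2 and Tnrc6a take a larger share with shRNA RUS on both days, and Tnrc6b a smaller one.

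Partners of these genes were followed in 6 lists, whose counts stand beside 17.9% of all genes called lower and 14.8% higher on day 5, and 25.8% lower and 23.4% higher on day 7. Of 11 partners of the Microprocessor and its nuclear substrates, 6 were lower and 0 higher on day 5 (median log2 fold change -0.25), and on day 7 all 11 were called, 5 higher and 6 lower (median -0.31). Hnrnpa1, an RNA-binding protein known to aid the processing of certain primary microRNAs, had the largest fall on day 5 (-0.56, adjusted p = 0.000104), from 535.1 ± 23.3 to 361.6 ± 18.7 scaled TPM. On day 7 Erh, a small partner of Dgcr8, fell from 132.0 ± 8.24 to 82.4 ± 5.32 (-0.67, adjusted p = 1.18e-05). Khsrp, which binds terminal loops of precursors, rose from 41.8 ± 2.75 to 58.0 ± 6.13 (0.48, adjusted p = 0.00086).

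Of 14 partners of Dicer1, of export and of the loading of Argonaute, 6 were lower and 1 higher on day 5 (median -0.093), and 9 lower and 1 higher on day 7 (median -0.21). Hsp90aa1, a chaperone that helps to load Argonaute, fell most on both days. Its level went from 731.6 ± 44.7 to 487.0 ± 56.3 scaled TPM on day 5 (-0.59, adjusted p = 0.000852) and from 1449 ± 62.5 to 754.7 ± 90.6 on day 7 (-0.93, adjusted p = 1.21e-05). Prkra, a double-stranded RNA-binding partner of Dicer1, rose on day 5 (0.39, adjusted p = 0.000777), and Adar, which edits double-stranded RNA, on day 7 (0.51, adjusted p = 6.58e-05).

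Of 31 effectors of deadenylation, decapping and decay, 6 were lower and 3 higher on day 5 (median -0.082), and 7 lower and 12 higher on day 7 (median 0.0048). Cnot6, a deadenylase of the CCR4-NOT complex, fell on day 5 from 49.7 ± 1.73 to 32.0 ± 5.57 scaled TPM (-0.65, adjusted p = 0.00189), and Cnot9, the subunit that binds TNRC6, on day 7 from 29.7 ± 0.873 to 19.3 ± 1.15 (-0.60, adjusted p = 7.91e-06). Dcp1a, a decapping factor, rose on both days (0.27, adjusted p = 0.0175, and 0.63, adjusted p = 4.87e-05).

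Of 16 regulators of small RNA turnover and of the silencing complex, 13 were tested, of which 4 were lower and 1 higher on day 5 (median -0.12) and 4 lower and 4 higher on day 7 (median -0.076). On day 5 Tut7, a uridyltransferase of microRNA precursors, fell (-0.32, adjusted p = 0.00736) and Trim32, an E3 ligase of neural progenitors, rose (0.28, adjusted p = 0.00433). On day 7 Eri1, an exonuclease, fell (-0.45, adjusted p = 0.000716), and Zc3h12a, an RNase of immune mRNAs and precursor loops, rose from 2.47 ± 0.601 to 6.28 ± 1.24 scaled TPM (1.34, adjusted p = 0.000199).

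The piRNA pathway, the small RNA route of the germline, was low for most of its genes. Piwil1 had at most 0.045 scaled TPM in a library, while Pld6 had 3.72 ± 0.956 and Ddx4 2.04 ± 0.153 with shRNA CON on day 5, and of 10 genes listed 5 passed the minimum level on day 5 and 7 on day 7. Of these, 1 was lower on day 5, Ddx4 (-0.76, adjusted p = 0.00601), and 4 on day 7, with Pld6, a mitochondrial protein, at -0.97 (adjusted p = 0.000633). Among the 4, Piwil4 (0.188 to 0.0664 scaled TPM) and Tdrd1 (0.253 to 0.117) lay near the minimum of 0.1 TPM. Medians were -0.47 over the 5 genes of day 5 and -0.64 over the 7 of day 7, which are not the same set.

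Of 11 host transcripts of microRNAs, 3 were lower and 1 higher on day 5 (median -0.28), and 3 lower and 5 higher on day 7 (median 0.16). Mir9-3hg, host of a mir-9 copy of neural progenitors, fell from 65.2 ± 0.673 to 44.5 ± 1.64 scaled TPM on day 5 (-0.55, adjusted p = 5.65e-05) and from 62.7 ± 3.13 to 44.3 ± 3.01 on day 7 (-0.49, adjusted p = 0.000109). Mir670hg rose on day 5 (0.42, adjusted p = 0.0142), and Mir99ahg, host of mir-99a, on day 7 (0.56, adjusted p = 3.71e-05).

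Between the days, the counts of the lists stand beside 26.9% of all genes called higher and 21.6% lower with shRNA CON, and 35% higher and 25.8% lower with shRNA RUS. With shRNA CON, 5 of 11 Microprocessor partners, 3 of 14 partners of Dicer1 and loading, 20 of 31 decay effectors and 5 of 13 turnover regulators were higher on day 7, and 0, 5, 3 and 0 were lower. With shRNA RUS, 6, 4, 21 and 7 of the same lists were higher and 2, 9, 3 and 1 lower. Of the 11 host transcripts, 4 and 6 were higher and 2 and 2 lower, and of the 7 piRNA genes tested, 2 and 1 were higher and 1 and 2 lower.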

How the data were processed

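RNA-seq was analysed from 16 libraries of cortical NSC, 4 for each shRNA and day, grouped by the labels. PolyA RNA was sequenced on an Illumina NextSeq, and the authors used STAR for alignment to mm10, with transcripts of GRCm38.99, and RSEM for quantification; tool versions are not given in the sources used here. For each day, the deposited table holds the TPM of 8 libraries, the mean of normalized counts of a day, which is a signal averaged over libraries and used here as read support only, and their own DESeq2 results (5 columns of fold changes, standard errors, scores and p-values), which were not used. The library sums lay between 999999.3 and 1000000.7 TPM and 25612 to 29126 genes were above 0. With no counts per library, depth and intervals that need it are unknown, and no count test was run.

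TPM were divided by median-ratio library factors (0.845 to 1.11, set on genes that reach 1 TPM in every library of a fit), 0.1 was added, and log2 values were tested with limma 3.58.1 in R 4.3.3 (lmFit, eBayes with trend, two-sided, Benjamini-Hochberg over all genes that reach 0.1 TPM in the mean). Each day had a fit of 8 libraries; comparisons between days used 1 fit of 16 and left out 106 lines whose symbols differ between the tables or are missing, among them 3 lines of day 5 (0.00541%) that name no gene. The script was tested on simulated data. Gene positions and transcript lengths came from GENCODE vM21 (GRCm38, not the release of the authors), matched by symbol, with a length for 97.4 to 97.7% of the genes tested. The members, lists and tests were chosen with earlier results of these data known. Named are the 10 members and, of each list, the called genes with the largest increase and the largest decrease on each day at a mean of at least 1 TPM. Figures were drawn with Python 3.11.15 and matplotlib 3.10.9. Alternatives were a pseudocount of 1 or 0.01, a minimum of 1 TPM or none, TPM as deposited, quantile and 75th percentile scaling, eBayes without trend, a replicate block, each library left out, and a lowess length trend removed (span 0.3).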

Additional observations from a re-analysis of the deposited data

Results flagged for a closer look

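In 40 groups of 4 libraries (10 genes, 4 groups), 10 had a library whose gap to its nearest neighbour took a larger part of the range of the group than Dixon's 95% critical value. For a single group chance gives this about 1 time in 20. The 10 genes were measured in the same 16 libraries, so the 40 groups are not independent and that rate cannot be set against their count. On day 5, replicate 4 of shRNA RUS lay above the others for Dicer1 (0.948 of the range), Tnrc6b (0.926) and Ago2 (0.852), and replicate 1 of shRNA CON for Ago4 (0.854) and Ago3 (0.843). On day 7, replicate 1 of shRNA RUS lay above the others for Ago3 (0.886) and below them for Ago1 (0.865) and Tnrc6a (0.860). In shRNA CON on day 7, replicate 1 lay below the others for Tnrc6a (0.957) and replicate 4 above them for Dgcr8 (0.959).

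The effect of shRNA RUS differed between day 5 and day 7, by the limma test of the difference itself, for 8 genes. The difference of log2 fold changes, day 7 minus day 5, was 0.665 for Ago2, 0.654 for Tnrc6b, 0.603 for Tnrc6a, 0.516 for Ago1, 0.443 for Dicer1, 0.412 for Ago4, 0.337 for Dgcr8 and 0.251 for Drosha. The part of transcript length in these differences is given above as values.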

How the results depend on the processing

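On day 5, where 4 of the 10 genes were called, 2 were called without a filter on low values, with quantile scaling, with eBayes without trend or with the replicate number as a block, 8 with TPM as deposited, 1 with the length trend removed, and 1 to 8 with a library left out. Calls over all genes moved too. Against 4034 of 22581 lower in the main fit, they were 3551 of 34568 without a filter. They were 3327 with quantile scaling, 3922 with eBayes without trend and 2735 with the block, each of 22581. On day 7 (5 called) the count was 3 with 75th percentile scaling and with the length trend removed, and 4 to 5 with a library left out. Over all 24606 genes, 4888 were higher and 6812 lower with 75th percentile scaling. With the length trend removed they were 6022 and 5928, against 5766 and 6342 in the main fit. For day 7 against day 5 in shRNA CON (10 called) it was 6 with the length trend removed. For the difference between the days (8 called) it was 4 with the length trend removed and 5 to 9 with a library left out. For these counts the cause was not tested. Tnrc6b on day 5, Tnrc6a, Ago2 and Xpo5 on day 7, and the difference between the days for Ago1, Ago2 and Tnrc6a kept their direction and call under every alternative run.

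With the length trend removed the sign turned for Ago2 (0.056), Xpo5 (0.043) and Tnrc6a (0.14) on day 5, for Ago3 (-0.11) and Dgcr8 (-0.0034) on day 7, for Ago3 in day 7 against day 5 (-0.055 in shRNA CON and -0.0067 in shRNA RUS) and for Xpo5 in day 7 against day 5 in shRNA RUS (-0.28). With 75th percentile scaling it turned for Ago3 (-0.037) and Dgcr8 (-0.026) on day 7, and with TPM as deposited for the difference between the days of Xpo5 (0.040). With a library left out, Ago3 on day 7 ranged from -0.026 to 0.055 and Tnrc6b on day 7 from -0.053 to 0.033.

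Same-numbered libraries did not deviate together over all genes tested (correlations of -0.105 to 0.0325). Taken over all genes from 0.1 TPM, such values cannot exclude a shared preparation, so whether the replicate numbers pair the libraries remained unknown. With the replicate block 2 genes were called on day 5 and 4 on day 7, and the counts between the days were 10, 9 and 9. Without read counts, what depth limits could not be stated.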
